A study of Mus musculus with 35 samples.

Results

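Esm1, Angpt2, Apln, Cd34, Pecam1, Plvap, Vwf, Kdr and Sox17 are 9 genes that endothelial cells of capillaries and growing vessels express, and they are followed here through tumors, non-tumorous liver and control liver of 3 mouse liver cancer models. They were chosen by name, with earlier results of these data known. Each is read by its own single-symbol probe set, 9 of the 18820 genes tested on the arrays. All 9 passed, because no filter on dim genes was applied, and the lowest value of any of them on any array (4.58 log2 units, Esm1) lay above the first quartile of every array (4.13 to 4.24). Values are log2 signals of the authors' processed table, so a difference of 1 is a doubling.

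The DEN model gave 5 tumor arrays and 5 arrays of non-tumorous liver (NTL) from mice given 10 mg per kg diethylnitrosamine into the peritoneum, which damages DNA once hepatocytes metabolize it, at 15 days of age and observed to 9 months, with 5 arrays of untreated control livers. The LT model gave 3 tumor and 5 NTL arrays from tg1223 mice, whose liver overexpresses lymphotoxin alpha and beta, followed for 12 months. The MYC model gave 5 tumor and 3 NTL arrays, both labelled as from mice with liver-specific MYC overexpression, in which the liver promoter LAP drives the tTA activator of a TRE-MYC transgene. Doxycycline chow at 200 mg per kg held MYC off until 8 weeks of age in these mice. The LT and MYC models share 4 control arrays from transgene-negative mice, so their comparisons with controls are not independent. Strain names are not given in the labels. The labels state that controls were matched for sex and age, and that tissue was dissected by eye and frozen, with the tumors checked by histology.

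The mouse identifiers limit these groups. DEN tumor replicates 1 and 4 share an identifier stem, as do replicates 3 and 5 and, in the LT model, tumor replicates 1 and 2, so 5 DEN tumors carry 3 stems and 3 LT tumors carry 2. The labels do not say whether a stem is 1 mouse or 1 litter. No stem occurs in both tumor and NTL arrays, so no tumor can be set against NTL of its own stem. The identifiers of the MYC NTL mice begin with WT, which the labels do not explain, so whether these livers carry the transgene is unsettled, and every MYC comparison that uses NTL depends on it. Xist, transcribed from an inactive X, stood at or above 11.7 on 9 arrays and no higher than 6.24 elsewhere. Those were the 3 LT tumors, every LT NTL array but replicate 2, and, in both control groups, replicate 3 alone. No MYC array was among them, so LT and MYC arrays differed in Xist nearly throughout. The shared controls, mostly low, did not mirror the LT arrays in Xist, although the labels call controls matched for sex. Alb, the albumin gene of hepatocytes, lay between 13.6 and 13.8 on every array. Myc averaged higher in MYC tumors than in MYC NTL by 1.94 ± 0.61 (adjusted p = 0.0217), with 8.88 to 10.5 on the MYC tumor arrays, against 9.48, 6.42 and 7.25 on the MYC NTL arrays. Ltb, for lymphotoxin beta, was higher in LT tumors than in LT NTL by 1.25 ± 0.36 (adjusted p = 0.0119), and Lta changed there by -0.39 ± 0.13 (adjusted p = 0.032). The same genes changed by 1.31 ± 0.31 (Ltb) and -0.32 ± 0.11 (Lta) in DEN tumors. Whether these probe sets read the transgenes is not given in the sources used here.

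Normal liver has no ordinary capillaries between its hepatocytes: blood runs through sinusoids, whose endothelium is fenestrated, lacks a continuous basement membrane and carries scavenger receptors such as Stab2 and Clec4g. Liver tumors draw on arterial blood, and their vessels take on features of capillaries, a change known as capillarization, of which endothelial CD34 is the usual marker in pathology. Growing vessels are led by tip cells, which respond to VEGF through its receptor KDR and express ESM1, ANGPT2 and APLN. Because whole tissue was measured, fewer endothelial cells and less RNA per endothelial cell cannot be told apart.

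The upstream sequences of the genes with the largest tumor changes that the RefSeq promoter table (GRCm38.p6) holds are shown first. Esm1 lies at chr13:113209659-113218104, Cd34 at chr1:194938821-194961292 and Apln at chrX:48025146-48034853. The 250 bases before each start are printed 5′ to 3′ on the strand of the gene, at chr13:113209409-113209658 (plus strand) for Esm1, chr1:194938571-194938820 (plus strand) for Cd34 and chrX:48034854-48035103 (minus strand) for Apln. Capitals mark AGGAAG or its reverse complement, a core that ETS factors such as ERG and FLI1 of endothelial cells bind.
Esm1: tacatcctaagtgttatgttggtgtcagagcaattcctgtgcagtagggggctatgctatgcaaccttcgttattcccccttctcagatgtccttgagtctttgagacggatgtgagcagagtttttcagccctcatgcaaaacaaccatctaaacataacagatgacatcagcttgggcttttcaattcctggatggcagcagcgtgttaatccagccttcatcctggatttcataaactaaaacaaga
Cd34: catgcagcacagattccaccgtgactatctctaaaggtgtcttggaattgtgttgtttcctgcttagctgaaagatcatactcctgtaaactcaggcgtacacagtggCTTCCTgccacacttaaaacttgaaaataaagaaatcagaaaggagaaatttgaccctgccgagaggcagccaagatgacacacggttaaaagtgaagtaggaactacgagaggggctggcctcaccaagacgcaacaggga
Apln: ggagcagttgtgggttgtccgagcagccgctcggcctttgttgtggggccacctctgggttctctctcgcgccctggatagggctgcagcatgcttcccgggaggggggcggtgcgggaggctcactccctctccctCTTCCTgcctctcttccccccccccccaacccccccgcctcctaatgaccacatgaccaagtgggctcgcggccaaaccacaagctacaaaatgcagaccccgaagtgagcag
Cd34 held 1 such match, its first letter 142 bases before the start, and Apln held 1 at 113 bases, both on the strand opposite to the gene. Esm1 and Kdr held none. Of the 32851 windows in that RefSeq set, each likewise searched over the 250 bases before the start, 29.5% held at least 1. The SOX letters AACAAT, the hypoxia response core ACGTG and the GATA letters AGATAA, searched on both strands, were in none of the 4 windows of Esm1, Cd34, Apln and Kdr, and in 9.42%, 16.6% and 9.99% of all windows. A match is a run of letters, not a bound site. Angpt2 (chr8:18690263-18741562), Plvap (chr8:71497753-71511806), Vwf (chr6:125552948-125686679), Pecam1 (chr11:106654213-106715281) and Sox17 (chr1:4490928-4497426) were not matched in that table. Kdr lies at chr5:75932827-75979072.

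**Figure D1:**
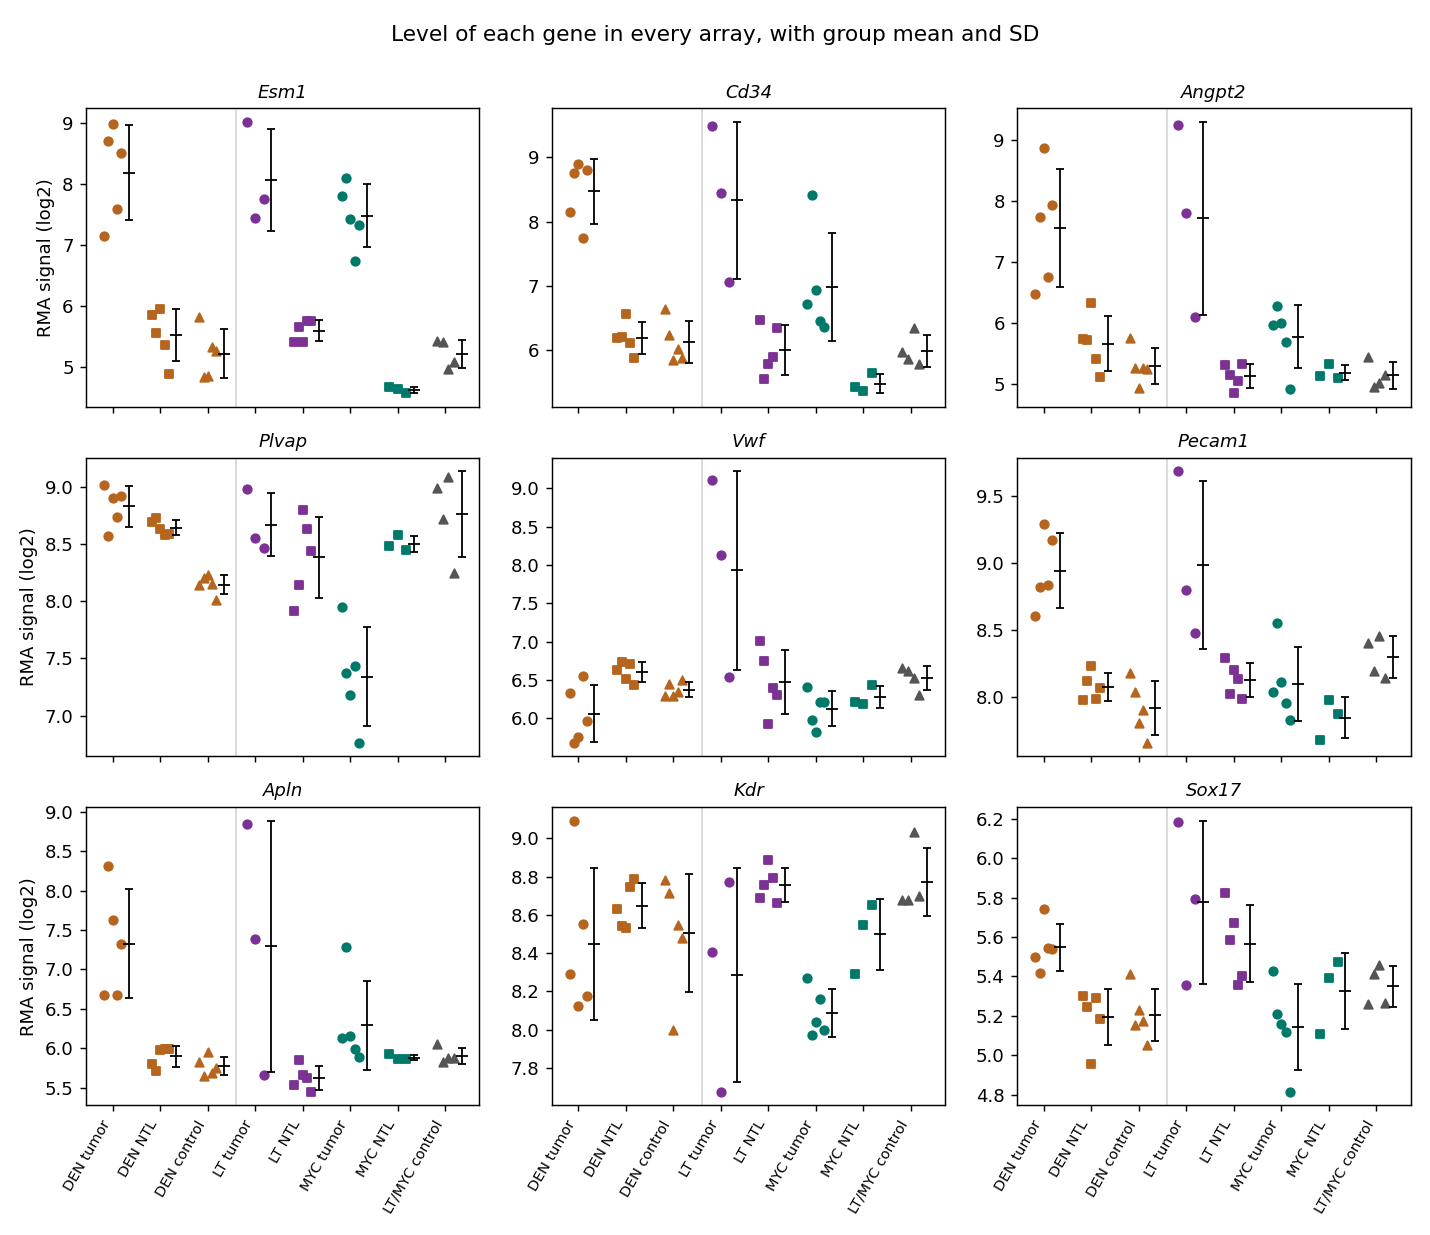
Log2 signal of each gene on each of the 35 arrays (points), with group means and SDs (bars), by group. Esm1 and Cd34 lie higher on every tumor array than on the NTL arrays of the same model, while Plvap and Kdr lie lower on every MYC tumor array than on the MYC NTL arrays.

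Tumor was first compared with NTL in each model. In DEN tumors 6 of the 9 genes rose and none fell (Esm1, Cd34, Angpt2, Apln, Pecam1 and Sox17), where 15.6% of all genes rose and 16.7% fell. In LT tumors 6 rose and none fell (Esm1, Cd34, Angpt2, Apln, Vwf and Pecam1), where 10.7% of all genes rose and 9.73% fell. In MYC tumors Esm1 and Cd34 rose and Plvap fell, where 11.5% of all genes rose and 10.3% fell. A gene counts as risen or fallen at an adjusted p under 0.05 in limma's fit over all 35 arrays. Esm1 and Cd34 were thus the 2 of 9 that rose in all 3 models, as 1.77% of all genes did. The median log2 change of the 9 genes was 0.87 in the DEN model, 1.45 in the LT model and 0.25 in the MYC model, beside -0.04, -0.03 and -0.03 over all genes.

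**Figure D2:**
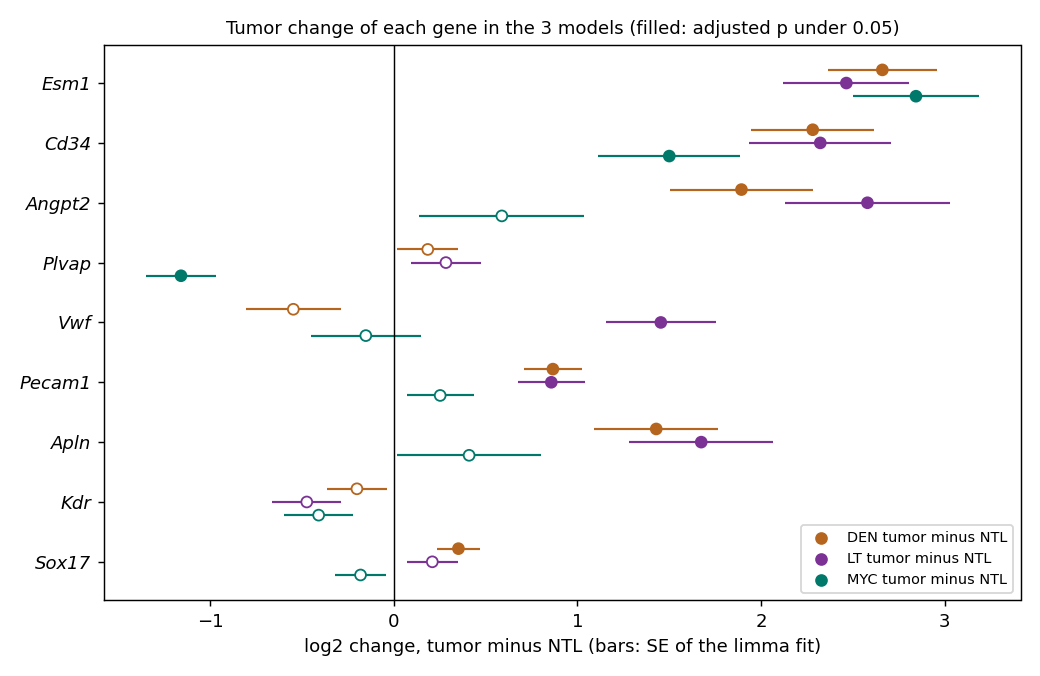
Log2 change of each gene in tumor minus NTL for the DEN, LT and MYC models, with standard errors of the limma fit as bars; filled points passed an adjusted p of 0.05. Esm1 lies between 2.46 and 2.84 in all 3 models, whereas Plvap lies near 0 in DEN and LT and at -1.16 in MYC.

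Among the secreted products, Esm1 encodes endocan, a proteoglycan released by tip cells. In DEN tumors it measured 7.14, 8.69, 8.98, 7.59 and 8.51, against 5.86, 5.56, 5.95, 5.36 and 4.89 in DEN NTL. LT tumors gave 9.01, 7.44 and 7.75, against 5.41, 5.67, 5.42, 5.75 and 5.76 in LT NTL. MYC tumors gave 7.81, 8.09, 7.42, 6.74 and 7.32, against 4.69, 4.64 and 4.58 in MYC NTL. Every tumor array thus stood above every NTL array of all 3 models. The rise was 2.66 ± 0.30 in DEN (6.32-fold, adjusted p = 4.20e-08), 2.46 ± 0.34 in LT (5.52-fold, adjusted p = 2.08e-05) and 2.84 ± 0.34 in MYC (7.17-fold, adjusted p = 8.06e-07). Errors of changes are standard errors of the fit, which shares its estimate of the spread among all groups. These 3 rises did not pass a test of their differences, with estimates of -0.18 ± 0.45 for DEN minus MYC, -0.38 ± 0.48 for LT minus MYC and -0.20 ± 0.45 for LT minus DEN (adjusted p = 0.855, 0.67 and 0.828). The group means ran from 8.18 ± 0.78 (SD, n = 5) in DEN tumors, 8.07 ± 0.83 (SD, n = 3) in LT tumors and 7.48 ± 0.51 (SD, n = 5) in MYC tumors down to 4.64 ± 0.05 (SD, n = 3) in MYC NTL, with 5.60 ± 0.17 in LT NTL, 5.52 ± 0.42 in DEN NTL and 5.23 and 5.22 in the DEN and the shared controls between them. The 3 tumor means lay closer together than the SD of the DEN tumors, and the means from 5.60 to 5.22 closer than the SD of DEN NTL.

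Angpt2 encodes angiopoietin 2, a ligand of the TIE2 receptor that destabilizes vessels in concert with VEGF. It measured 6.47, 7.74, 8.87, 6.76 and 7.93 in DEN tumors, against 5.74, 5.73, 6.33, 5.41 and 5.11 in DEN NTL. LT tumors gave 9.25, 7.80 and 6.09 in replicates 1 to 3, against 4.85 to 5.33 in LT NTL. MYC tumors spanned 4.93 to 6.28 with a median of 5.97, against 5.13, 5.33 and 5.09 in MYC NTL. Tumor and NTL did not overlap in the DEN and LT models and did overlap in the MYC model, where replicate 5 lay below every NTL array. Angpt2 rose by 1.89 ± 0.39 in DEN (3.71-fold, adjusted p = 0.000335) and by 2.58 ± 0.45 in LT (5.98-fold, adjusted p = 0.000187). Its SD was 1.58 in LT tumors and 0.20 in LT NTL. In a limma fit of only these LT arrays its rise had an adjusted p of 0.0509. The MYC change was 0.59 ± 0.45 and missed the threshold (adjusted p = 0.384). The LT change exceeded the MYC change by 1.99 ± 0.64 (adjusted p = 0.0369). Without LT tumor replicate 1 that difference was 1.22 (adjusted p = 0.2), and it also missed the threshold without LT tumor replicate 2, LT NTL replicate 3, MYC tumor replicate 5 or any 1 of the 3 MYC NTL arrays (1.78 to 2.04, adjusted p = 0.0555 to 0.0803).

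Apln encodes apelin, the peptide ligand of the receptor APLNR and a product of tip cells. DEN tumors measured 6.67, 8.32, 7.63, 6.67 and 7.33, against 5.71 to 5.99 in DEN NTL. LT tumors measured 8.85, 7.38 and 5.66, against 5.45 to 5.85 in LT NTL. MYC tumors measured 6.13, 7.29, 6.16, 5.99 and 5.89, against 5.92, 5.86 and 5.86 in MYC NTL. In LT, replicate 3 lay within the NTL range, and in MYC replicate 2 stood apart from the other tumors. Apln rose by 1.43 ± 0.34 in DEN (adjusted p = 0.0015) and by 1.67 ± 0.39 in LT (adjusted p = 0.00265). Its SD was 1.59 in LT tumors and 0.15 in LT NTL. In a limma fit of only these LT arrays its rise had an adjusted p of 0.122. The MYC change was 0.41 ± 0.39 (adjusted p = 0.5). Aplnr, the gene of the apelin receptor, rose in LT tumors by 1.61 ± 0.41 (adjusted p = 0.00598), and its changes of 0.55 ± 0.36 in DEN and 0.18 ± 0.41 in MYC did not pass.

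Among the surface proteins, Cd34 encodes a sialomucin of capillary endothelium and of blood progenitors. It measured 8.15, 8.76, 8.89, 7.74 and 8.80 in DEN tumors, against 6.19, 6.20, 6.56, 6.11 and 5.88 in DEN NTL. LT tumors gave 9.48, 8.45 and 7.05, against 6.47, 5.54, 5.78, 5.89 and 6.35 in LT NTL. MYC tumors gave 6.72, 8.42, 6.94, 6.46 and 6.36, against 5.42, 5.37 and 5.65 in MYC NTL. No tumor array overlapped the NTL arrays of its model. Cd34 rose by 2.28 ± 0.33 in DEN (4.86-fold, adjusted p = 3.72e-06), 2.32 ± 0.39 in LT (5.00-fold, adjusted p = 0.000118) and 1.5 ± 0.39 in MYC (2.83-fold, adjusted p = 0.00529). MYC tumor replicate 2 was the only MYC tumor above 7, and without it the rise was 1.14 (adjusted p = 0.0188). The difference between models was 0.78 ± 0.51 for DEN minus MYC (adjusted p = 0.349) and 0.82 ± 0.55 for LT minus MYC (adjusted p = 0.353). Leaving out LT tumor replicate 1 brought the LT minus MYC difference to 0.24 (adjusted p = 0.835), whereas leaving out replicate 3 brought it to 1.46, past the threshold (adjusted p = 0.0435).

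Pecam1 encodes CD31, an adhesion molecule of all endothelial cells, and it changed less. DEN tumors spanned 8.60 to 9.29 with a median of 8.84, against 7.98 to 8.23 in DEN NTL. LT tumors measured 9.69, 8.80 and 8.48, against 7.99 to 8.29 in LT NTL. MYC tumors spanned 7.83 to 8.56, against 7.68 to 7.98 in MYC NTL. The groups did not overlap in DEN and LT and overlapped in MYC. Pecam1 rose by 0.87 ± 0.16 in DEN (1.82-fold, adjusted p = 7.69e-05) and by 0.86 ± 0.18 in LT (1.81-fold, adjusted p = 0.00112), and the MYC change was 0.25 ± 0.18 (adjusted p = 0.353). Its SD was 0.63 in LT tumors and 0.13 in LT NTL. In a limma fit of only these LT arrays its rise had an adjusted p of 0.078.

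Plvap encodes the protein of the diaphragms that close endothelial fenestrae and caveolae. It measured 9.02, 8.56, 8.90, 8.74 and 8.92 in DEN tumors, against 8.69, 8.72, 8.63, 8.58 and 8.58 in DEN NTL. LT tumors gave 8.98, 8.55 and 8.46, against 7.91, 8.14, 8.79, 8.63 and 8.44 in LT NTL. MYC tumors gave 7.95, 7.37, 7.18, 7.44 and 6.76, against 8.48, 8.57 and 8.45 in MYC NTL. MYC tumors lay below every other array of the study, with 1 exception: LT NTL replicate 1 lay just below MYC tumor replicate 1. Plvap fell in MYC tumors by 1.16 ± 0.19 on the log2 scale (2.23-fold lower, adjusted p = 6.16e-05). Its changes in DEN (0.19 ± 0.17, adjusted p = 0.42) and LT (0.28 ± 0.19, adjusted p = 0.325) did not pass. The change in MYC differed from that in DEN by 1.34 ± 0.25 (DEN minus MYC, adjusted p = 0.000447) and from that in LT by 1.44 ± 0.27 (LT minus MYC, adjusted p = 0.000835).

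Vwf encodes von Willebrand factor, stored in Weibel-Palade bodies of endothelium and in platelets. DEN tumors measured 6.33, 5.68, 5.76, 6.55 and 5.97, against 6.62, 6.74, 6.52, 6.70 and 6.44 in DEN NTL. LT tumors measured 9.11, 8.13 and 6.54, against 7.0, 6.75, 5.92, 6.40 and 6.31 in LT NTL. MYC tumors spanned 5.82 to 6.41, against 6.19 to 6.44 in MYC NTL. LT tumor replicates 1 and 2, which share an identifier stem, stood above every other array of the study, and replicate 3 lay within the NTL range. In DEN, 1 of the 5 tumors reached the NTL range. Vwf rose in LT tumors by 1.45 ± 0.30 (2.74-fold, adjusted p = 0.000891). Its SD was 1.29 in LT tumors and 0.415 in LT NTL. In a limma fit of only these LT arrays its rise had an adjusted p of 0.127. The DEN change was -0.55 ± 0.26 (adjusted p = 0.11) and the MYC change -0.15 ± 0.30 (adjusted p = 0.774). LT differed from DEN by 2.00 ± 0.40 (LT minus DEN, adjusted p = 0.00123) and from MYC by 1.61 ± 0.42 (LT minus MYC, adjusted p = 0.0127). Without LT tumor replicate 1 these differences were 1.41 and 1.02, the second no longer past the threshold (adjusted p = 0.0742). Since platelets hold Vwf too, platelet and megakaryocyte genes were read beside it: of the 6 measured, 2 rose in LT tumors (Pf4, a platelet chemokine, by 1.61 ± 0.26, and Itga2b, an integrin of megakaryocytes, by 0.41 ± 0.10), while Itga2b fell in DEN tumors by 0.38 ± 0.09 and in MYC tumors by 0.49 ± 0.10. Gp5, a platelet glycoprotein gene, fell in MYC tumors by 0.53 ± 0.11. The list's array means spanned 5.92 to 6.42 in LT tumors and 5.63 to 5.88 in LT NTL, and none of its genes averaged below the first quartile. Pf4 measured 8.21, 7.10 and 6.03 in LT tumor replicates 1 to 3, against 5.35 to 5.74 in LT NTL. Their part in the Vwf change was not tested.

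Kdr, the gene of the main VEGF receptor of endothelium, rose in no model. DEN tumors spanned 8.12 to 9.09 with a median of 8.29, against 8.53 to 8.79 in DEN NTL. LT tumors measured 8.40, 7.67 and 8.77, against 8.66 to 8.89 in LT NTL. MYC tumors spanned 7.97 to 8.27, against 8.29 to 8.65 in MYC NTL, with no overlap. Its log2 differences from NTL stood at -0.20 ± 0.16 in DEN tumors, -0.47 ± 0.19 in LT tumors and -0.41 ± 0.19 in MYC tumors, values that all missed the threshold (adjusted p = 0.374, 0.0753 and 0.125). Without LT tumor replicate 3, Kdr was lower in LT tumors by -0.72 (adjusted p = 0.0069).

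Sox17 encodes an endothelial transcription factor of the SOXF group, prominent in arteries, and its signals were low throughout. DEN tumors spanned 5.42 to 5.74, against 4.96 to 5.30 in DEN NTL, with no overlap. LT tumors measured 6.18, 5.36 and 5.79, against 5.36 to 5.82 in LT NTL. MYC tumors spanned 4.81 to 5.42, against 5.11 to 5.47 in MYC NTL. Sox17 rose in DEN by 0.35 ± 0.12 (1.28-fold, adjusted p = 0.023). That call was lost without DEN tumor replicate 3 (0.30, adjusted p = 0.0704) or DEN NTL replicate 3 (0.29, adjusted p = 0.0763). The changes of 0.21 ± 0.14 in LT and -0.18 ± 0.14 in MYC did not pass, although without LT tumor replicate 2 the LT change was 0.42 (adjusted p = 0.0361). The DEN change exceeded the MYC change by 0.53 ± 0.18 (adjusted p = 0.0451), a call lost on leaving out any 1 of 11 of the 18 arrays compared (0.45 to 0.55, adjusted p = 0.0531 to 0.142). The SOXF relatives Sox18 and Sox7 rose in DEN tumors by 0.62 ± 0.15 and 0.58 ± 0.17, and Sox18 rose in MYC tumors by 0.52 ± 0.18.

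Counted without a model, 6 of the 9 genes lay higher on every DEN tumor array than on every DEN NTL array (10.7% of all genes did), 4 of 9 in LT (7.4%) and 2 of 9 in MYC (13%). In MYC, Plvap and Kdr lay lower on every tumor array (13.9%). The differences between models, tested over all genes, were called for 2 of the 9 in DEN minus MYC (Plvap and Sox17, where 15.1% of all genes were called in either direction), 3 in LT minus MYC (Angpt2, Plvap and Vwf, against 12.4%) and 1 in LT minus DEN (Vwf, against 13.9%). The counts of 2 of 9 and 1 of 9 are near those shares. Without LT tumor replicate 1, the LT minus MYC count was 1, and without LT tumor replicate 3 it was 6, with Cd34, Pecam1 and Apln added. The same exclusion gave 2 for LT minus DEN, with Angpt2 added (adjusted p = 0.047). The shares of called genes above belong to the fit over all arrays, and none is given here for the fits with an array left out.

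Tumors were next compared with livers of control mice. In DEN tumors 7 of the 9 rose and none fell, where 15% of all genes rose: the same 6 as against NTL, and Plvap by 0.68 ± 0.17 (adjusted p = 0.0018). The Sox17 call was lost without DEN tumor replicate 3 or control replicate 2 or 5 (0.30 to 0.33, adjusted p = 0.0545 to 0.0821). Plvap measured 8.01 to 8.23 in DEN controls, below every DEN tumor and every DEN NTL array. In LT tumors 7 rose and none fell, where 8.78% of all genes rose, namely the 6 of the NTL comparison and Sox17 by 0.43 ± 0.14 (adjusted p = 0.0396). All LT tumors but only 1 of the 4 controls were high in Xist, and with Xist as a covariate 4 were called (Esm1, Cd34, Angpt2 and Vwf). Without LT tumor replicate 1, 3 were called (Esm1, Cd34 and Angpt2). The share of 8.78% belongs to the fit over all arrays without that covariate, so it is no background for these smaller counts. Sox17 also missed the threshold without LT tumor replicate 3 or control replicate 1, 2 or 4, and Apln without LT tumor replicate 2 (adjusted p = 0.0566), while Kdr passed as lower without LT tumor replicate 3 (-0.73, adjusted p = 0.00912). In MYC tumors Esm1 (2.26 ± 0.31, adjusted p = 4.06e-06) and Cd34 (0.99 ± 0.35, adjusted p = 0.0456) rose, and Plvap (-1.42 ± 0.18, adjusted p = 7.01e-07) and Kdr (-0.68 ± 0.17, adjusted p = 0.00478) fell. Of all genes, 10.2% rose and 10.3% fell in that comparison. The Cd34 call was lost without MYC tumor replicate 2, at 0.63 (adjusted p = 0.182). It was also lost without MYC tumor replicate 3 or without control replicate 1, 2 or 4 (0.92 to 1.00, adjusted p = 0.0621 to 0.104). The number of genes with every tumor array above every control array was 7 of 9 in DEN (10.1% of all genes), 4 of 9 in LT (7.2%) and 2 of 9 in MYC (7.85%), and 2 lay below in MYC (9.65%).

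NTL livers were then compared with control livers, and none of the 9 genes was called in any model. Over all genes, limma called 0.197% in DEN, 2.41% in LT and 3.83% in MYC. At an unadjusted p under 0.05, 1 of the 9 passed in each model, Plvap in DEN (0.50 ± 0.17) and in LT (-0.38 ± 0.18), and Pecam1 in MYC (-0.45 ± 0.19). At that threshold 9.55% of all genes passed in DEN, 15.6% in LT and 16.4% in MYC, so 1 of 9 is near the background. Plvap lay higher on every DEN NTL array than on every DEN control array, as 2.21% of all genes did. In the MYC model Esm1, Cd34, Pecam1 and Kdr each lay lower on all 3 NTL arrays than on all 4 control arrays, as 12.3% of all genes did. Esm1, for example, measured 4.69, 4.64 and 4.58 in MYC NTL, against 5.43, 5.41, 4.97 and 5.08 in controls.

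The tumors of a model differed among themselves. The median over the 9 genes of a tumor array minus the NTL mean was 2.63, 1.66 and 0.22 in LT tumor replicates 1 to 3. In DEN tumor replicates 1 to 5 it was 0.53, 0.74, 1.21, 0.76 and 1.10. It was lower in the pair with a shared stem (replicates 1 and 4) than in the other such pair (3 and 5). On each DEN tumor this median was the value of Pecam1. The mean over the 9 genes was 0.64, 1.18, 1.31, 0.73 and 1.10 in DEN tumor replicates 1 to 5. In MYC tumors the median ran from -0.07 in replicate 5 to 0.71 in replicate 2. Averaging arrays of a stem left 6 of 9 called against NTL in DEN and 6 of 9 in LT. Against control, the same averaging called 5 in LT in place of 7, without Pecam1 (0.56, adjusted p = 0.0531) and Apln (0.98, adjusted p = 0.134). Without LT tumor replicate 1, 4 of 9 were called in LT, and Pecam1 (0.51, adjusted p = 0.052) and Apln (0.90, adjusted p = 0.11) were not. Vwf then was at 0.86 and Angpt2 at 1.81. Without replicate 3, 7 were called, with Angpt2 at 3.39, Cd34 at 2.96, Apln at 2.49 and Vwf at 2.15. Esm1 was at 1.99 without replicate 1 and at 2.62 without replicate 3. No share of all genes is given here for the fits with stems averaged or an array left out.

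**Figure D3:**
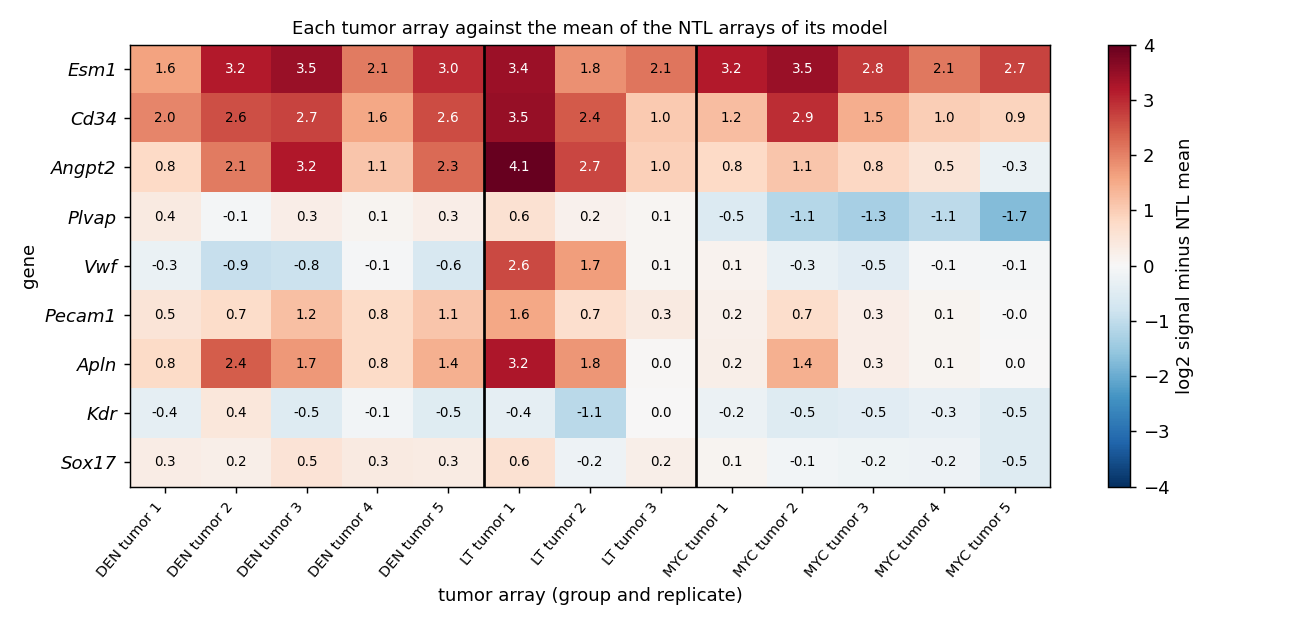
Each cell gives the log2 signal of a gene (rows) on a tumor array (columns) minus the mean of the NTL arrays of its model, on a blue (lower) to red (higher) scale. LT tumor replicate 1 reaches 4.1 for Angpt2, LT tumor replicate 3 is at 0.04 for Apln, and the Plvap row is negative on all 5 MYC tumors.

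Markers of sinusoidal endothelium were lower more often than higher. Of 18 measured in DEN tumors, 10 fell and 2 rose. In LT tumors 7 fell and 1 rose, and in MYC tumors 6 fell and none rose. The median changes were -0.59, -0.42 and -0.61 in that order. Beside this list and those below stand the shares of all genes that rose and fell. They were 15.6% and 16.7% in DEN, 10.7% and 9.73% in LT, and 11.5% and 10.3% in MYC. Clec4g, a lectin of sinusoidal endothelium, measured 8.91, 7.54 and 11.56 in LT tumor replicates 1 to 3, against 10.98 to 11.39 in LT NTL. Replicate 3, which lay within the NTL range for Apln and Vwf, was thus above every LT NTL array for Clec4g. In DEN tumors Clec4g was lowest in replicates 3 and 5 (9.61 and 9.40), the pair with the highest medians of the 9 genes, and it measured 10.95 to 11.24 in the other tumors. The median of the list minus NTL was -1.09 and -1.13 in that pair and -0.29 to -0.05 in the others. Other genes of the list differed: Gpr182 rose in DEN tumors by 0.93 ± 0.29 (adjusted p = 0.015). Lyve1 was highest in DEN tumor replicate 3 (9.84), beside 8.89 to 9.28 in the other DEN tumors and 8.05 to 9.03 in DEN NTL. MYC tumor replicate 2, the highest for Cd34 and Apln, had the lowest Clec4g of its group, at 9.44 beside 10.37 to 10.70. Stab2, a scavenger receptor, fell in DEN (-0.54 ± 0.21, adjusted p = 0.0454) and LT tumors (-0.82 ± 0.24, adjusted p = 0.0154), and its MYC change was -0.58 ± 0.24 (adjusted p = 0.0847).

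Genes shared by all endothelial cells were read for comparison. Of 20, 12 rose and 2 fell in DEN, 7 rose and 1 fell in LT, and 2 rose and 5 fell in MYC, with medians of 0.46, 0.22 and 0.01. The mean of the list ran from 8.16 to 8.58 over DEN tumors, against 7.94 to 8.00 in DEN NTL, from 8.05 to 8.77 in LT tumors, against 7.90 to 8.07 in LT NTL, and from 7.54 to 8.00 in MYC tumors, against 7.60 to 7.81 in MYC NTL. Cdh5, for VE-cadherin, rose by 0.57 ± 0.17 in DEN and 1.04 ± 0.20 in LT and did not pass in MYC (adjusted p = 0.991). Cd93, a receptor of angiogenic endothelium, rose in all 3 models, by 1.77 ± 0.28, 1.72 ± 0.32 and 1.01 ± 0.32. The part of these pan-endothelial changes in the changes of the 9 genes was not tested.

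**Figure D4:**
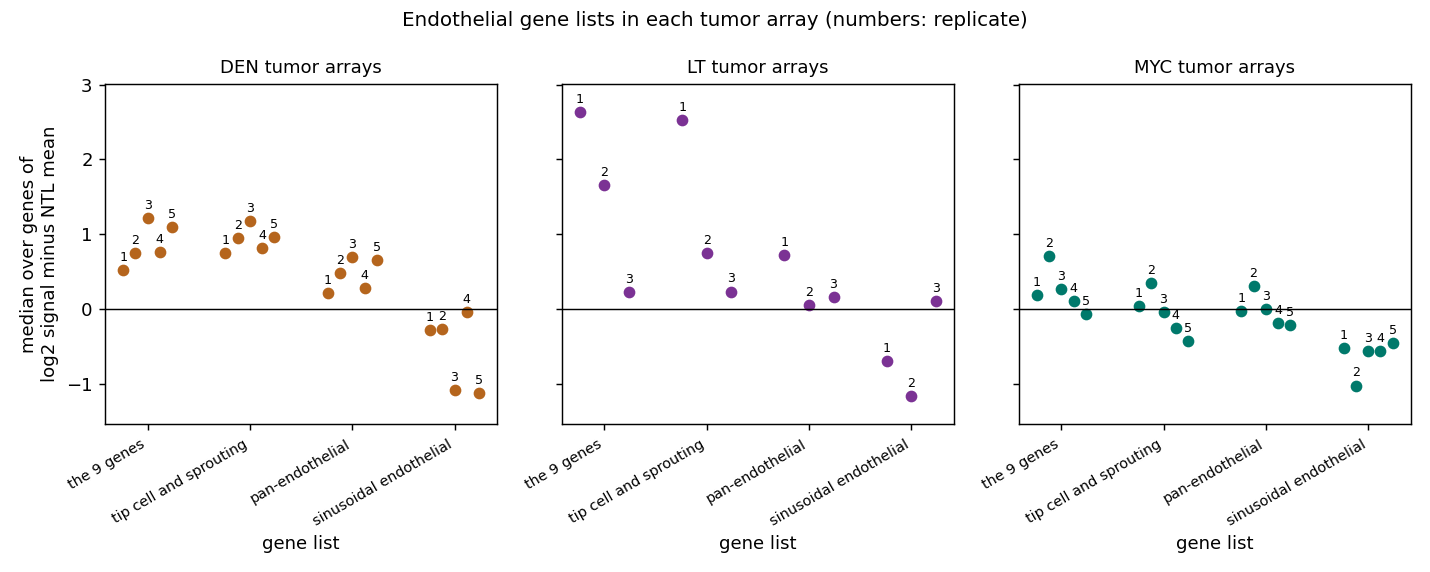
Median over the genes of a list of the log2 signal on a tumor array minus the NTL mean of its model, 1 point per tumor array, numbered by replicate, for the 9 genes, tip cell and sprouting genes, pan-endothelial genes and sinusoidal genes. LT tumor replicate 1 reaches 2.63 for the 9 genes, and replicate 3 is the only LT tumor above 0 for the sinusoidal list (0.11).

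The signals and receptors around these genes were read from gene lists. Of 19 tip cell and sprouting genes, 13 rose and none fell in DEN tumors, 11 rose and none fell in LT tumors, and 1 rose and 4 fell in MYC tumors, with medians of 1.04, 0.96 and -0.03. Nid1, a basement membrane protein, rose by 2.90 ± 0.24 in DEN and 1.75 ± 0.27 in LT. Pdgfb, which recruits pericytes, rose by 1.32 ± 0.21 in DEN, 1.92 ± 0.25 in LT and 1.03 ± 0.25 in MYC, where it was the 1 gene of the list that rose, and Cxcr4, a chemokine receptor, rose by 1.64 ± 0.32 in DEN and 1.62 ± 0.37 in LT. Ednrb, an endothelin receptor, fell by 1.22 ± 0.30 in MYC.

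Of the 9 VEGF ligands and receptors other than Kdr, 2 rose and 1 fell in both DEN and MYC. In LT, 1 rose and 1 fell. Counts of 1 of 9 are near the shares of all genes given above. Vegfa, the principal KDR ligand, rose in DEN (0.56 ± 0.14, adjusted p = 0.00286), and its changes of -0.16 ± 0.16 in LT and -0.28 ± 0.16 in MYC did not pass. Flt1, a VEGF receptor that also acts as a decoy, rose in DEN by 0.59 ± 0.19. The coreceptor gene Nrp1 fell in DEN by 0.77 ± 0.20 and in MYC by 1.76 ± 0.23. The other coreceptor gene, Nrp2, rose in MYC by 1.14 ± 0.22 and fell in LT by 0.82 ± 0.22. Vegfb, a ligand of FLT1, rose in MYC by 0.74 ± 0.18, and Pgf, a further VEGF family ligand, rose in LT by 1.14 ± 0.39.

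In the angiopoietin, apelin and Notch list of 12, 6 rose and 2 fell in DEN, 3 rose and 2 fell in LT, and 2 rose and 4 fell in MYC. Tek, the gene of the TIE2 receptor that Angpt2 binds, fell in all 3 models, by 0.64 ± 0.15, 0.66 ± 0.18 and 0.62 ± 0.18 on the log2 scale. The Notch ligand gene Dll4 rose in DEN by 1.39 ± 0.21, and the Notch target Hey1 rose in all 3 models, by 0.86 ± 0.19, 0.86 ± 0.22 and 0.60 ± 0.22. The related target Hey2 fell in MYC by 0.51 ± 0.15, and its changes of 0.03 ± 0.13 in DEN and -0.08 ± 0.15 in LT did not pass. Of 17 hypoxia response genes, 5 rose and 3 fell in DEN, 3 rose and 1 fell in LT, and 1 fell in MYC. Of 12 genes of mural and stellate cells, which surround vessels, 3 rose and 1 fell in DEN, 6 rose and none fell in LT, and 3 fell in MYC. Acta2 was up by 1.77 ± 0.46 in DEN and 2.57 ± 0.53 in LT, and Lrat fell in DEN by 1.59 ± 0.29. In MYC, Reln fell by 1.41 ± 0.44, Lrat by 1.19 ± 0.34 and Des by 0.75 ± 0.23.

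Genes of other cell types were read in the same way. Counts of 1 of 8 and 1 of 11 below are near the shares of all genes given above. Of 8 leukocyte genes, 5 rose in LT tumors (array means 5.98 to 6.98, against 5.38 to 5.81 in LT NTL), 1 fell in DEN tumors and 1 fell in MYC tumors. Of 11 genes of Kupffer cells, the resident macrophages of the sinusoids, 9 fell in DEN tumors (array means 7.33 to 8.23, against 8.62 to 9.57 in DEN NTL), 4 rose and 2 fell in LT tumors (7.81 to 9.35, against 8.28 to 8.89 in LT NTL) and 1 fell in MYC tumors (7.26 to 8.46, against 8.19 to 8.39 in MYC NTL). The 4 that rose in LT tumors were C1qb (1.33 ± 0.25), Adgre1 (1.26 ± 0.26), C1qc (1.15 ± 0.27) and Csf1r (0.67 ± 0.23). Clec4f fell there by 1.42 ± 0.48, so the list moved in both directions. Cd163, a scavenger receptor of macrophages, fell in all 3 models, by 2.69 ± 0.37 in DEN, 1.5 ± 0.42 in LT and 2.12 ± 0.42 in MYC. LT tumor replicate 3, lowest of its group for the 9 genes, had all 11 Kupffer genes above the NTL mean (median 0.75 higher), and replicates 1 and 2 had medians of 0.10 and -0.85. Of 9 mitosis genes, 8 rose in DEN, 8 in LT and 9 in MYC. Along the DEN tumors the mitosis list was lowest in replicates 3 and 5 (medians 0.48 and 0.84 above NTL). It lay between 1.65 and 2.61 in the other tumors. Replicates 3 and 5 had the highest medians of the 9 genes, which on DEN tumors are the values of Pecam1. By the mean of the 9 genes, replicate 2 (1.18) lay above replicate 5 (1.10). In LT the mitosis list was also lowest in replicate 3 (0.41, beside 1.64 and 2.10), in which the 9 genes were lowest. In MYC tumors replicate 2, highest for the 9 genes, was next to the highest for mitosis (2.54, with the others between 2.07 and 3.37). The part of these lists in the results above was not tested.

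The genes whose 8 group means ran most like those of each of the 9 were found by the root mean square difference of mean-centred profiles. For Apln it was Cxcr4, at 0.12 log2 units over a span of 1.70. Angpt2 had Casp12 at 0.20 and Acta2 at 0.23 over a span of 2.58, and Cd34 had Casp12 at 0.25 and Angpt2 at 0.26 over a span of 2.99. Plvap had Ednrb and Cyp21a1 at 0.19 over a span of 1.49, and both of these were lowest in MYC tumors (6.33 and 4.89). Vwf had Cd79b, a B cell receptor chain, and Ccdc3 at 0.13 over a span of 1.87. Esm1, with a span of 3.55, had no profile nearer than Mir675 at 0.27 and Anxa2 at 0.36. Pecam1 had Tcf4 and Tuba1a at 0.07. With 8 group means and 18820 genes, such likeness is a description.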

How the data were processed

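RNA of 35 mouse liver samples was hybridised to 1-colour Affymetrix arrays of the type Mouse Gene 1.1 ST, named through the platform of the probe annotation. Per the labels' protocols, 100 ng of RNA with an integrity number above 8.0 was labelled per sample. The deposited values are log2 signals that the authors made with RMA, per the submitters' processing notes, and the software version is not given in the sources used here. Precision is limited by how many arrays a group has. Array medians lay between 5.59 and 5.73.

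Of 35556 probe sets, 21218 had 1 gene symbol, 1881 several and 12457 none. The brightest single-symbol probe set stood for each of 18820 genes; all 9 genes had exactly 1. All 35 arrays entered 1 limma fit of 8 group means (limma 3.58.1, R 4.3.3, lmFit and eBayes), with Benjamini-Hochberg adjustment over the 18820 genes and a threshold of 0.05. The fits were tested on simulated data. Replicates are separate samples by their labels, but some share a mouse identifier stem, so p-values measure the spread between arrays. Coordinates and promoters come from RefSeq (GRCm38.p6).

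The 9 genes, the gene lists, the tests and the alternatives were chosen with earlier results of these data known. Named besides the 9 were up to 4 called genes with the largest change per list and tumor to NTL comparison, a set of endothelial and platelet genes, and the 2 nearest profiles of each gene. Myc, Lta, Ltb and Alb were added as checks of the labels.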

Additional observations from a re-analysis of the deposited data

Results flagged for a closer look

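MYC tumor replicate 2 stood apart from the other MYC tumors for Cd34, at 8.42 beside 6.36 to 6.94, and for Apln, at 7.29 beside 5.89 to 6.16. Among the controls of the LT and MYC models, replicate 3, which is also the Xist-high array of that group, stood apart for Kdr at 9.04 beside 8.68 to 8.70. These are 3 of the 54 pairs of gene and group with 4 or 5 arrays, and chance marks about 1 in 20 such groups.

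In all, 6 changes from NTL to tumor differed between models by limma's test of the difference itself. Plvap differed by 1.34 between DEN and MYC and by 1.44 between LT and MYC, higher in the first-named model each time. Sox17 differed by 0.53 between DEN and MYC, Angpt2 by 1.99 between LT and MYC, and Vwf by 1.61 between LT and MYC and by 2.00 between LT and DEN.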

How the results depend on the processing

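The alternatives left out dim genes, centred arrays on their medians, fitted only the groups compared or each experiment apart, averaged arrays of a mouse stem, took Xist as a covariate, averaged probe sets, used a robust trend or array weights, added the replicate number as a block, or left out 1 array at a time. Over the comparisons of groups, 33 changes were called, and in 617 alternative fits of these 44 lost the call and none changed sign; of 895 fits of changes that were not called, 14 gained a call and 40 changed sign without one. For differences between models, 6 were called, and in 159 fits 26 lost the call and none changed sign; of 561 fits of the others, 10 gained a call and 32 changed sign without one.

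With only the groups compared, LT tumor against NTL kept 2 of 6 calls and against control 0 of 7 (Esm1 2.85, adjusted p = 0.0547). In the same fit MYC NTL against control had 2 (Esm1 and Pecam1, beside none as reported) and DEN NTL against control 1 (Plvap). LT minus MYC kept 1 of 3, and Cd34 in MYC tumors against control lost its call (adjusted p = 0.099). That fit takes the spread from the arrays of the compared groups alone. With experiments fitted apart, DEN NTL against control had 1 and LT minus MYC 1; lost were Apln and Sox17 in LT tumors against control (adjusted p = 0.0565 and 0.0994) and Cd34 in MYC tumors against control (adjusted p = 0.107). With array weights MYC NTL against control had 1 and DEN minus MYC 5 of 9, beside 2; Pecam1 and Sox17 in LT tumors against control were lost (adjusted p = 0.0555 and 0.225). Centring arrays lost Sox17 there (adjusted p = 0.0515). With Xist as covariate LT tumor against control kept 4. Kdr in MYC tumors passed with only the groups compared (-0.41, adjusted p = 0.0295) and with array weights (adjusted p = 0.0255). Vwf in DEN tumors passed with only the groups compared, experiments apart and array weights (-0.55 to -0.56, adjusted p = 0.00644 to 0.0237). Kdr in LT tumors passed with arrays centred on their medians (-0.52, adjusted p = 0.0438). The causes were not tested. Shares of all genes called under these fits, and under the replicate block below, are not given here. The counts of calls under them therefore lack a background.

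Leaving out 1 array gave 5 to 6 calls for DEN tumor against NTL, 4 to 7 for LT, 3 for MYC, 6 to 7, 3 to 7 and 3 to 4 for the tumors against controls, and 0 for NTL against controls. It gave 1 to 3 for DEN minus MYC, 1 to 6 for LT minus MYC and 1 to 2 for LT minus DEN. Shares of all genes called with 1 array left out are not given here either, so these counts lack a background. With 1 array left out, Sox17 in DEN minus MYC lost its call in 11 of 18 fits, and Pecam1 gained one without DEN tumor replicate 1 or MYC tumor replicate 2 (0.70 and 0.73). Deviations of same-numbered arrays from their group means correlated between -0.38 and 0.45 (median 0.0084 over 109 pairs). For arrays of other numbers the range was -0.65 to 0.42 (median -0.00019 over 424 pairs). These pairs were drawn across all groups and models, so pairing within a model was not tested. With the replicate block, DEN minus MYC kept 1 of 2 calls, as Sox17 was at 0.48 (adjusted p = 0.0668), and Angpt2 in LT minus MYC was at 1.74 (adjusted p = 0.105). Arrays averaged by mouse stem gave 1.59 for that Angpt2 difference (adjusted p = 0.0691).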
